A study of Homo sapiens with 2 samples.

Results

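The 9 subunits of the CCR4-NOT complex described here are CNOT1, CNOT2, CNOT3, CNOT4, CNOT6, CNOT6L, CNOT7, CNOT8 and CNOT10, taken by gene name from a map of N6-methyladenosine (m6A) in which 47352 gene names were listed. CCR4-NOT is the main cytoplasmic deadenylase: it shortens the poly(A) tail of messenger RNA, after which the RNA is decapped or degraded. CNOT1 is the scaffold, CNOT2 and CNOT3 bind together near its C-terminus, CNOT10 binds its N-terminal part, and the nucleases that remove the tail are CNOT6 or its paralog CNOT6L and CNOT7 or its paralog CNOT8. m6A is a methylated adenosine within messenger RNA, and YTHDF2, a protein that reads it, is known to recruit CCR4-NOT to methylated transcripts. The values below concern the m6A signal on the messages of the deadenylase itself.

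The cells were GM12878, a human lymphoblastoid line, that is, B cells immortalised by Epstein-Barr virus, grown in RPMI with 15% serum and given no other treatment in the labels. Total RNA was fragmented, and fragments bound by an m6A antibody (the immunoprecipitated library, IP) were sequenced next to unselected fragments (the input). There was 1 library of each kind, both from this single line, so differences between IP and input could not be set against replicates, and neither SDs nor p-values appear. One label field of both libraries names mouse embryonic stem cells, against the human organism and the cell line in the other fields. In the input, all 7 B cell markers were above the minimum used below, from 3.0 for EBF1 to 775 for CD74, while the 4 pluripotency markers reached at most 0.153 (SOX2).

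Each transcript listing is cut, exon by exon, into windows of 100 nt that start 50 nt apart. Coverage is a scaled value in which 1 stands for 5.84 input reads or 3.71 IP reads over each base. The kept listings held approximately 51.7 M input and 58.5 M IP reads of 36 nt. A window's score is the log2 ratio of IP to input after each is divided by its median over the gene, with 1 added to each number, so a signal spread evenly over a gene is divided out. A window scoring 2 or more (4-fold) is called enriched, and a run of at least 2 such windows is a region. The gene-level score is the highest mean score of 2 consecutive windows; as a maximum over all windows of a gene, it and the fold at that place lie above what windows chosen in advance would give. A gene counts as measured where its input averaged a scaled coverage of 1 or more, which 10756 genes did. Intervals are exact 95% intervals on the reads that the coverage implies, and cover counting error only, since PCR copies are not independent molecules.

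Of the 9 genes, 8 were measured and CNOT6L was not. Regions were found in 4 of the 8, namely CNOT2, CNOT4, CNOT6 and CNOT8, against 44.2% of all measured genes and 62.3% of measured genes with 53 to 198 windows, the range of these 8. CNOT1, CNOT3, CNOT7 and CNOT10 were measured and had none. The 6 regions held all 22 enriched windows, which were 3.02% of the 729 windows of the measured members, against 5.75% of the windows of all measured genes. No window of any member scored -2 or less, that is, 0 of all 912 and 0 of the 729 in measured members. Over the windows of all measured genes the share was 0.329%, so low that so few windows may hold none. The median gene-level score was 1.98 over the 8 measured members and 1.54 over all 9, against 1.81 over all measured genes. The share of these transcripts with a region was therefore near the background.

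**Figure D1:**
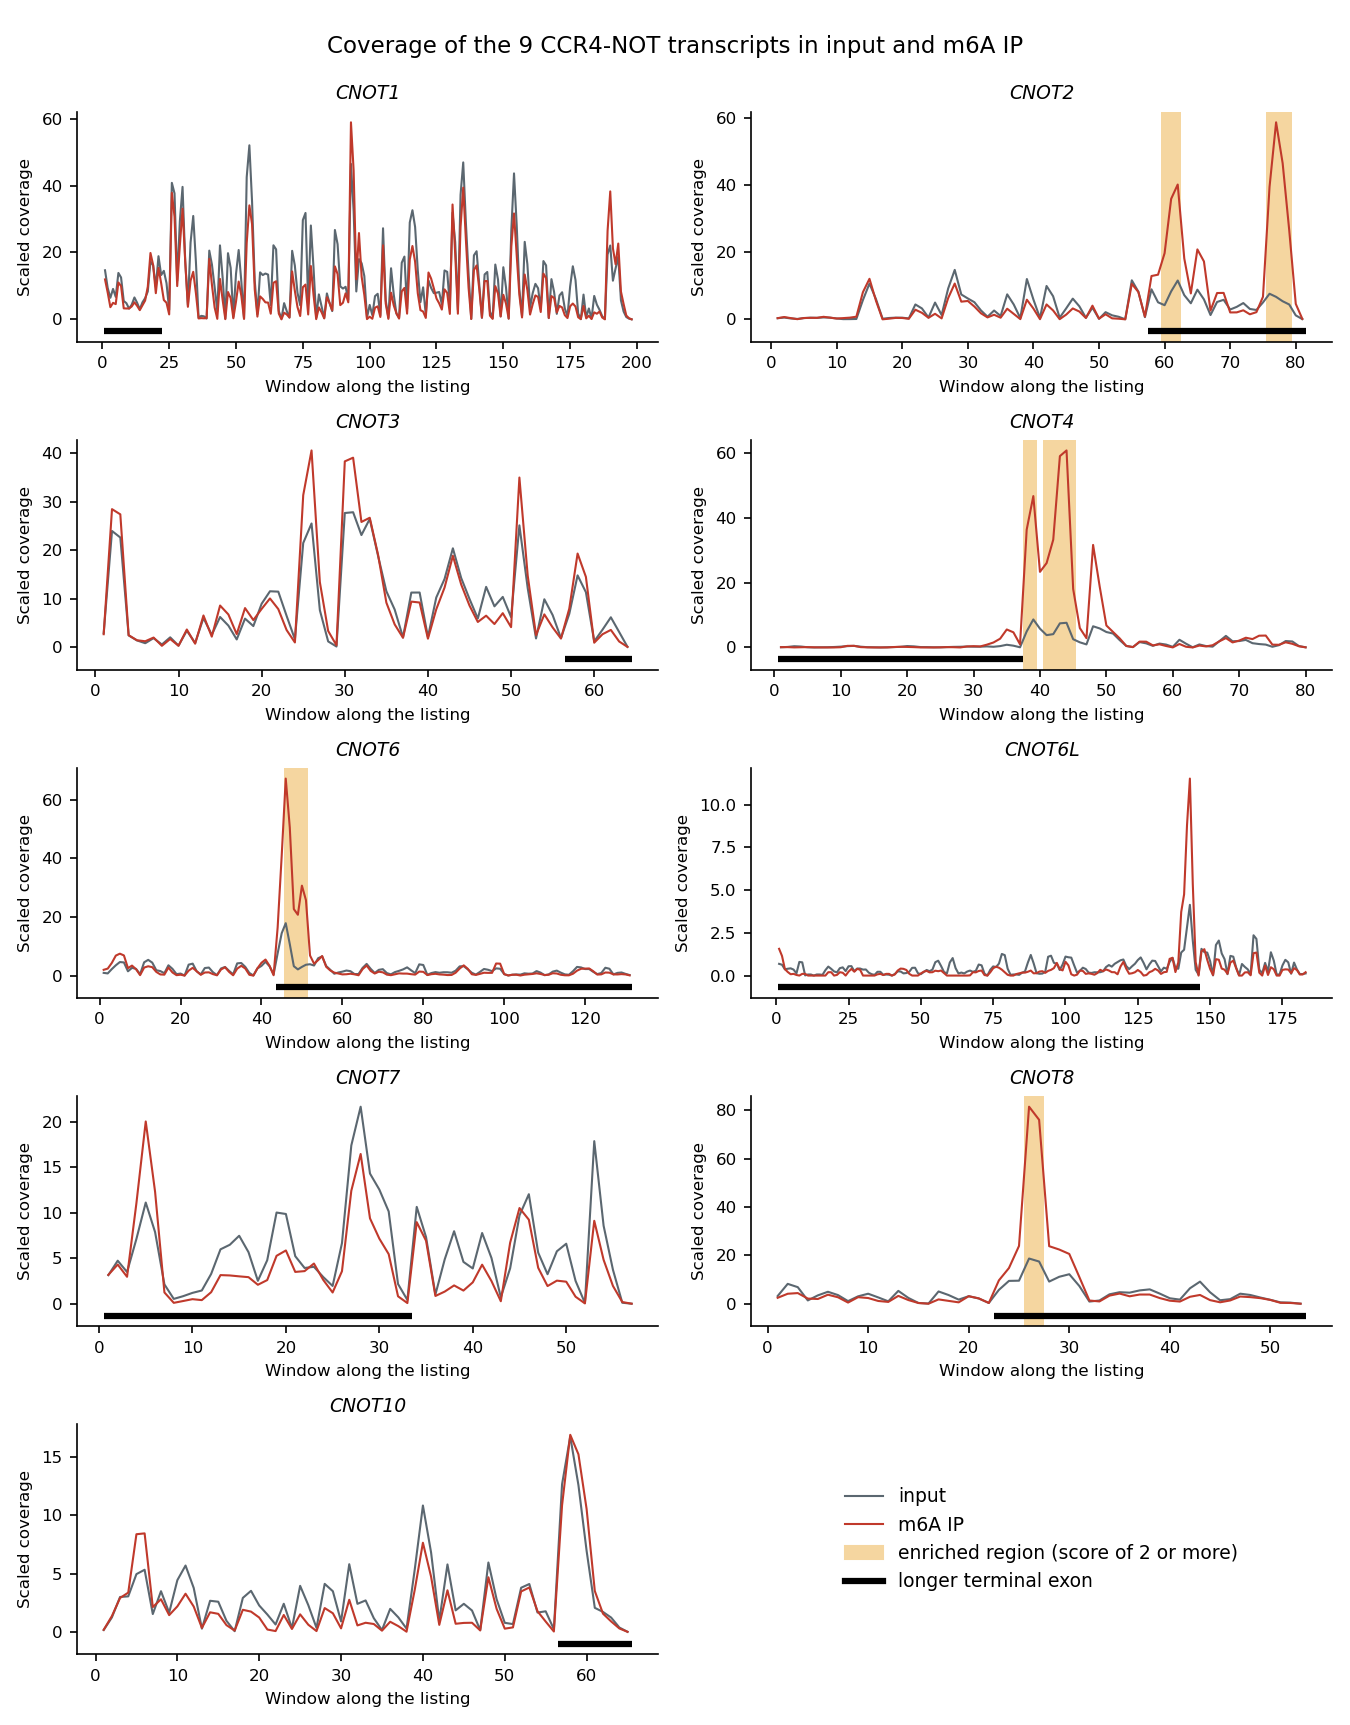
Scaled coverage (vertical axis, a separate linear scale for each gene) of input (grey) and IP (red) in each window along the kept listing of the 9 genes, in the order of the table; shading marks enriched regions and the black bar the longer terminal exon. IP coverage rises far above input in the shaded windows of CNOT2, CNOT4, CNOT6 and CNOT8, and no window is shaded in the other 5 genes.

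The messages were not equally abundant. Input coverage, which is per length and can be compared between genes, was 12 (11.8 to 12.1) for the scaffold CNOT1, 9.05 (8.79 to 9.31) for CNOT3, 5.90 (5.68 to 6.13) for CNOT7 and 4.51 (4.31 to 4.72) for CNOT8. It was 3.79 (3.65 to 3.95) for CNOT2, 3.09 (2.94 to 3.25) for CNOT10, 2.21 (2.12 to 2.30) for CNOT6, 1.38 (1.29 to 1.47) for CNOT4 and 0.542 (0.505 to 0.581) for CNOT6L. No neighbours in this order had overlapping intervals, though these hold for counting error only. Of the nuclease paralogs, CNOT6 exceeded CNOT6L, each with a single listing, and the kept listing of CNOT7 exceeded CNOT8. Some places depended on the listing: the other CNOT7 listing gave 4.02, below CNOT8, and the CNOT4 listing with the highest input gave 2.53, above CNOT6.

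**Figure D2:**
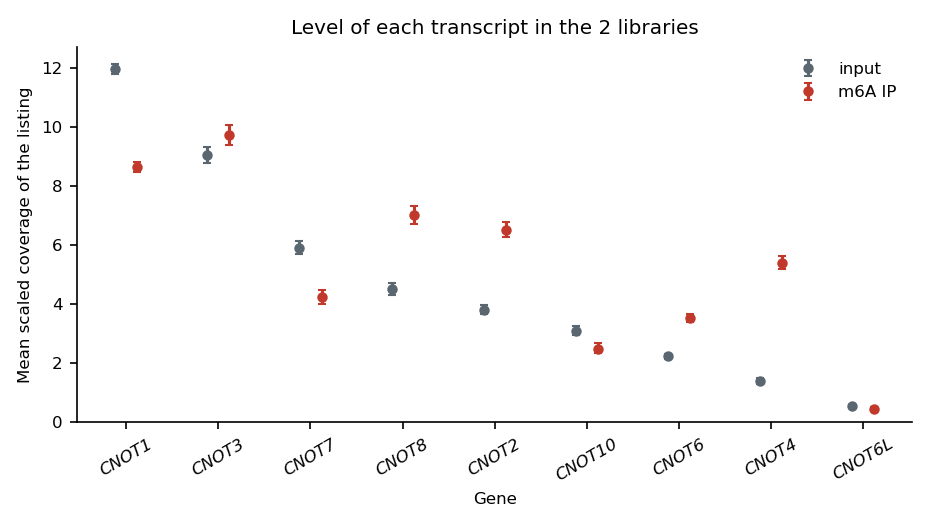
Mean scaled coverage over the kept listing (vertical axis) of the 9 genes, ordered by input, in the input (grey) and the IP (red) library; bars are exact 95% intervals for counting error. CNOT1 was highest in the input at 12 but had 8.64 in the IP, whereas CNOT4 had 1.38 in the input and 5.39 in the IP.

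IP coverage did not follow this order. It was 8.64 for CNOT1, 9.73 for CNOT3, 4.23 for CNOT7, 7.0 for CNOT8 and 6.51 for CNOT2. For CNOT10 it was 2.48, for CNOT6 3.51, for CNOT4 5.39 and for CNOT6L 0.439. The log2 ratio of IP to input over the whole listing was highest for CNOT4 (1.97), the subunit with a RING domain that acts as a ubiquitin ligase, followed by CNOT2 (0.78), CNOT6 (0.67), CNOT8 (0.63) and CNOT3 (0.10). It was below 0 for CNOT6L (-0.30), CNOT10 (-0.32), CNOT1 (-0.47) and CNOT7 (-0.48). The median over all measured genes was 0.44, with quartiles at -0.15 and 1.51, so CNOT1 (percentile 11.1), CNOT7 (10.7), CNOT10 (17.1) and CNOT6L (17.6) lay below the lower quartile and CNOT4 (83.1) above the upper one. When the ratio was taken as the median over windows, with 1 added, it turned below 0 for CNOT2 (-0.08), CNOT3 (-0.04), CNOT6 (-0.27) and CNOT8 (-0.28). Outside the regions the ratio of the summed coverages was 0.01 for CNOT2, -0.04 for CNOT6 and 0.07 for CNOT8, but still 1.09 for CNOT4. The CNOT4 value includes windows close to its regions in exon 2. Window 3 of that exon had 23.3 in the IP and 5.79 in the input, and window 1 of exon 3 had 31.6 and 6.53. As the median over windows, with 1 added, the CNOT4 ratio was 0.02.

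The scaffold CNOT1 had no enriched window in 198 windows and 50 exons. Its highest score was 1.47 and its gene-level score 1.44 (percentile 40.1 of measured genes), at windows 2 and 3 of exon 49, an internal exon of 6 windows. There the IP reached 29.7 and the input 16.8, a fold of 1.77 (1.54 to 2.02). The highest IP coverage on CNOT1 was 58.9, in the first window of exon 21, but the input there was 46.5 and the score 0.99. High IP coverage on this transcript thus fell where the input was also high. These values rest on 19198 input and 8832 IP reads.

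CNOT2 had the highest gene-level score of the 9 genes, 3.43 (percentile 79.3), although with 0.1 added in place of 1 CNOT6 was higher (3.96 against 3.76). Its longer terminal exon, exon 17, has 24 windows and carries 2 regions. The first, windows 3 to 5, lay 100 to 300 nt from the inner edge, which is the edge that adjoins the rest of the transcript. Its mean coverage reached 31.9 in the IP against 8.04 in the input, a fold of 3.97 (3.43 to 4.60). The second, windows 19 to 22, lay 900 to 1150 nt from that edge, with 42.8 in the IP and 6.04 in the input, a fold of 7.09 (6.17 to 8.17). At its peak, window 20, the IP was 58.7 and the input 6.70, a score of 3.46. Between them, from window 13 to window 17, the scores lay between -0.21 and 0.23. The 7 enriched windows were 8.64% of the windows of CNOT2 and held 15.7% of its input but 50.7% of its IP coverage. Exon 17 as a whole held 40.7% of the input and 75.4% of the IP. Its fold of IP over input was 3.18 (2.95 to 3.44), against 0.696 (0.633 to 0.764) over the 15 internal exons.

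CNOT3, which pairs with CNOT2 in the complex, had no enriched window and the lowest gene-level score of the 9 genes, 0.86 (percentile 20.1). Without centring on the gene medians its score was 0.86, above CNOT1 (0.80), CNOT7 (0.69) and CNOT10 (0.62). The centred score came from the last window of exon 9 and the first of exon 10, where the IP was 8.42 and the input 4.45, a fold of 1.90 (1.51 to 2.38). Its highest IP coverage, 40.5 in window 2 of exon 9, stood beside an input of 25.5. The fold differed little between exon classes: it was 1.06 (0.903 to 1.25) in the longer terminal exon, 1.06 (1.01 to 1.12) in the internal exons and 1.17 (1.01 to 1.36) in the shorter terminal exon. CNOT3 was the only member without a region at a score threshold of 1.

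CNOT10 had no enriched window either, with a gene-level score of 1.06 (percentile 27.8). Its highest pair lay in its shorter terminal exon, at 8.41 in the IP and 5.14 in the input, a fold of 1.63 (1.27 to 2.11). Its longer terminal exon has 9 windows. The fold there was 1.1 (0.948 to 1.28), against 0.587 (0.521 to 0.661) in the 17 internal exons. No exon of CNOT3 or CNOT10 has over 9 windows, and among measured genes of 53 windows or more whose exons, at least 2, are all this short, 15.8% had a region.

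CNOT4 was the only member whose regions lay in an internal exon. Exon 2 has 10 windows and is the longest internal exon among the members. Its first region, windows 1 and 2, had a mean of 41.5 in the IP and 6.79 in the input, a fold of 6.11 (5.15 to 7.30). Its second, windows 4 to 8, had 39.4 and 5.09, a fold of 7.73 (6.74 to 8.90). The single window between them scored 1.66, and the peak, window 7, scored 2.67 with an IP of 60.7 and an input of 7.60. Across the first 8 windows of this exon the IP never fell below 18.0 and the input never exceeded 8.63. The 2 regions held 8.75% of the windows of CNOT4, 35.4% of its input and 64.9% of its IP coverage. The neighbouring exon 3 began at 31.6 in the IP and 6.53 in the input, a score of 1.94, just under the threshold. Of the 6 internal exons of 6 to 10 windows in the measured members, exon 2 of CNOT4 was the 1 with a region. Among all measured genes 8.8% of internal exons of that size had one.

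In the kept CNOT4 listing the longer terminal exon is exon 1, which adjoins exon 2. It has 37 windows and was barely covered, with an input of 0.209 (0.161 to 0.267) and an IP coverage of 0.531. In the first 550 nt of this exon from the inner edge the fold was 5.18 (3.34 to 8.29), from 89 IP and 27 input reads. In the next block of 10 windows it was 0.484 (0.115 to 1.57), from 4 and 13 reads. The internal exons of the same listing had an input of 2.57. In 4 of the 6 CNOT4 listings the corresponding terminal exon has 28 windows, with 2.74 (2.53 to 2.97) in the input and 5.34 in the IP. That exon had no enriched window, a highest score of 1.35 and a fold of 1.95 (1.75 to 2.17). In its first 550 nt from the inner edge the fold was 2.37 (2.08 to 2.70), and in the next block of 10 windows 0.835 (0.599 to 1.16). Both regions of exon 2 were found in every one of the 6 listings.

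The exonuclease CNOT6 had a gene-level score of 3.31 (percentile 77.3). This score was 2.40 in windows with an input of at least 5, where CNOT4 had 2.66 and CNOT8 2.52. With 5 added in place of 1 it was 2.16, and with 0.1 added 3.96. The terminal exon of CNOT6, exon 12, has 88 of its 131 windows. In it 1 region of 6 windows, windows 3 to 8, lay 100 to 450 nt from the inner edge. Mean IP coverage in the region was 36.2 against 6.76 for the input, a fold of 5.35 (4.77 to 6.01). The IP was highest in window 3, at 67.1 with an input of 17.9 and a score of 2.26. The score was highest in window 7, at 3.40, where the IP was 30.6 and the input 2.96. The places of most IP coverage and of most enrichment thus differed by 4 windows. The region was 4.58% of the windows and held 14.0% of the input and 47.3% of the IP coverage. In the first 550 nt of the exon the fold was 4.09 (3.71 to 4.51), and it was 0.833 (0.651 to 1.06) in the following block and at most 0.973 in the later ones.

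CNOT6L, its paralog, was too low in the input to count as measured and had no enriched window, but its profile along the terminal exon followed a like course. This exon has 146 of its 183 windows, and its highest score pair lay 150 to 300 nt from the inner edge. The IP there was 10.1 and the input 3.48, a fold of 2.90 (2.22 to 3.83), and the gene-level score was 1.54. In the first 550 nt of the exon the fold was 2.61 (2.06 to 3.32), against 0.458 (0.233 to 0.845) in the next block. At 250 to 400 nt, where CNOT6 had its highest pair, CNOT6 had 25.7 in the IP and 2.53 in the input. The fold was 10.1 (7.70 to 13.4), from 398 IP and 62 input reads. CNOT6L had 4.23 and 1.43 there, a fold of 2.96 (1.94 to 4.60) from 66 IP and 35 input reads. This place was chosen for CNOT6, so the difference is a description. The window at the inner edge had an input of 0.058 in CNOT6L and 7.58 in CNOT6, and how well the distances match was not tested. With 0.1 added in place of 1, CNOT6L had a region, at a gene-level score of 2.34. That score is relative to gene medians of 0.197 in the IP and 0.397 in the input. Without centring on the medians, and with 1 added, the gene-level score was 1.32.

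The nuclease CNOT8 had 1 region of 2 windows in its terminal exon, exon 7, at 150 to 300 nt from the inner edge. IP coverage was 81.4 and 76.0 in these windows, the highest of any window in the 9 genes, and input coverage was 18.7 and 17.4. The fold was 4.36 (3.91 to 4.88) and the gene-level score 2.52 (percentile 63.8). The windows on either side scored 1.69 and 1.74. These 2 windows were 3.77% of the listing, with 15.1% of its input and 42.4% of its IP coverage. The fold was 2.81 in the first 550 nt of the exon and 0.652 in the next block.

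CNOT7, its paralog, had a higher input in the kept listing (5.90 against 4.51, but 4.02 in its other listing) and no enriched window in either, and its gene-level score was 1.19 (percentile 32). At 150 to 300 nt from the inner edge, where CNOT8 had its region, CNOT7 had 8.26 in the IP and 13.4 in the input, a fold of 0.617 (0.499 to 0.759). Its highest pair lay far from that edge, starting at 1350 nt, with 16.2 in the IP and 9.49 in the input, a fold of 1.70 (1.42 to 2.04). Along the exon the fold was 0.656 (0.572 to 0.750), 0.605 (0.508 to 0.717) and 1.21 (1.03 to 1.43) in successive blocks of 10 windows. CNOT7 and CNOT8 thus differed in the sign of the difference between IP and input at the same number of windows from the inner edge, at 128 and 1219 IP reads. The window at that edge had an input of 0.408 in CNOT7 and 5.71 in CNOT8, and how well the distances match was not tested. The distance was chosen for CNOT8. How reads that fit both paralogs of a pair were assigned is not given in the sources used here, and its part in these values was not tested.

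**Figure D3:**
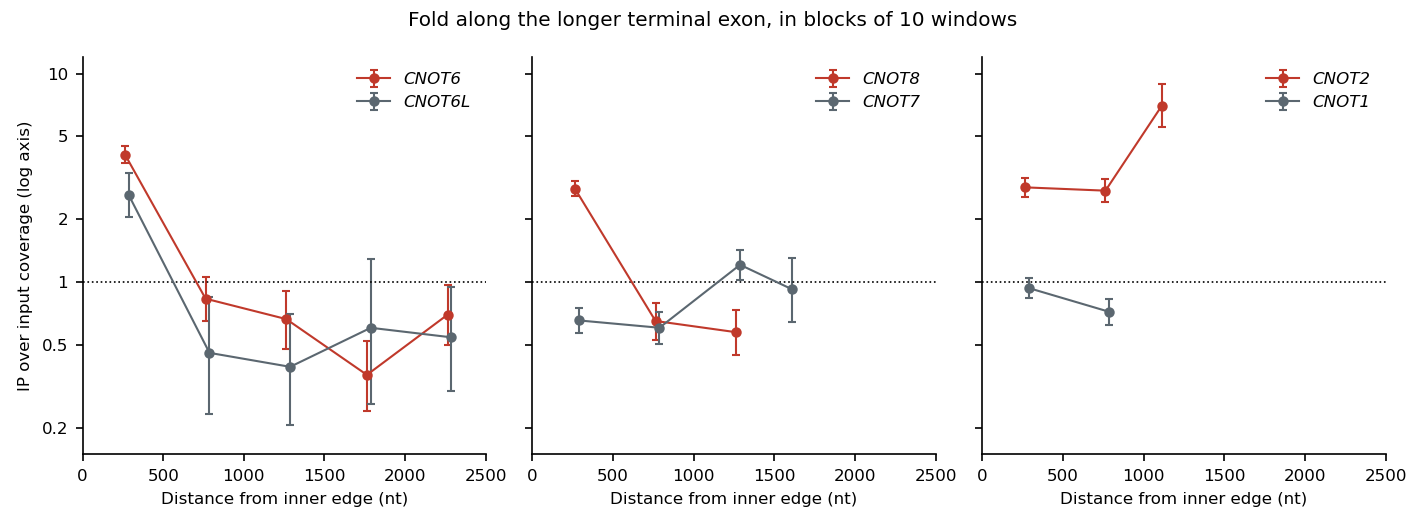
Ratio of IP to input coverage (vertical axis, log scale) in successive blocks of 10 windows (the last block of an exon may be shorter, and is left out under 3 windows) of the longer terminal exon against the distance of the block's middle from the inner edge (nt), up to 2500 nt; bars are exact 95% intervals for counting error, the dotted line is a ratio of 1, and each panel holds 2 members. CNOT6, CNOT6L and CNOT8 were highest in the first block, at 4.09, 2.61 and 2.81, and fell below 1 in the next, whereas CNOT7 began at 0.656 and CNOT2 was highest in its last block at 7.02.

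Across the 9 genes, the fold of IP over input was higher in the longer terminal exon than in the internal exons in 7 genes, and in 6 of them the intervals did not overlap. CNOT4 went the other way, with 2.52 (1.82 to 3.51) in the kept terminal exon and 4.18 (3.85 to 4.54) in its internal exons. A higher fold in the longer terminal exon was also found in 74.5% of measured genes. The longer terminal exon has at least 20 windows in 7 members, 6 of them measured, and 3 of these 6 (CNOT2, CNOT6 and CNOT8) had a region in it, against 54% of measured genes with such an exon. In all 3 a region lay within 8 windows of the inner edge, as in 71.8% of the background genes with a region in that exon. This limit coincides with the end of the CNOT6 region in window 8, so the 3 of 3 is a description and not a test. In the 8 measured members none of the 384 windows in the 119 internal exons of up to 5 windows was enriched, and the highest score was 1.94, in exon 3 of CNOT4. At 3 counts of the total, 0 of 384 allows a share of up to 0.781%, a limit that treats overlapping windows as separate, and the share over all measured genes was 0.0797%. Which terminal exon is the 3′ one was not read from the files, so distances are given from the inner edge and not from a stop codon.

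**Figure D4:**
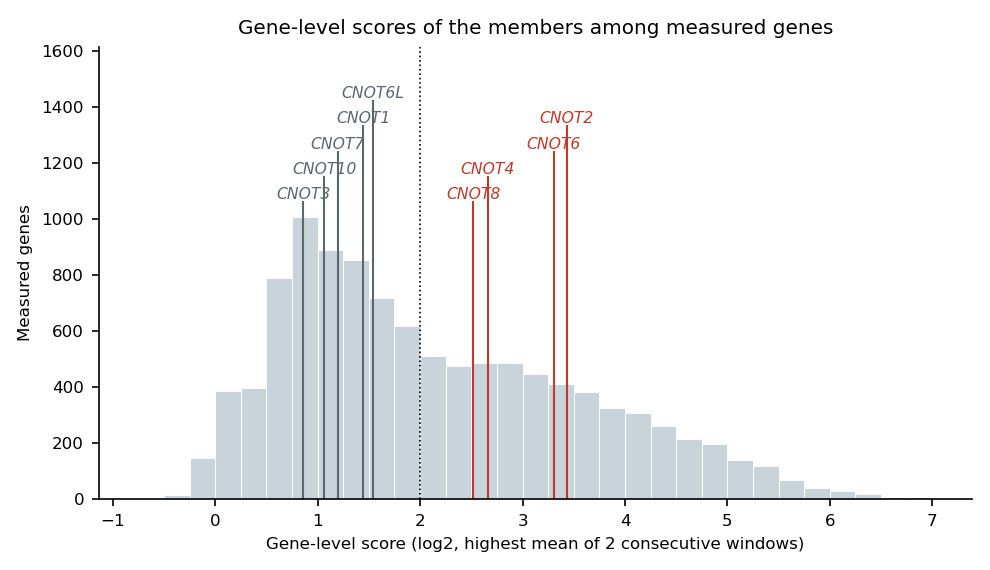
Number of measured genes (vertical axis) by gene-level score (log2, bins of 0.25) with the 9 members marked, red for those with an enriched region and grey for those without; the dotted line is a score of 2. The members ran from 0.86 for CNOT3 to 3.43 for CNOT2, with no member between 1.54 and 2.52.

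The other genes of deadenylation and decay give a setting for these values. The background is again 44.2% of all measured genes, and 62.3% of those with 53 to 198 windows. Of 74 genes in 6 lists, 67 were measured and 34 of them had a region. In the 3 other CCR4-NOT subunits only TNKS1BP1 had regions, 3 of them, with a gene-level score of 3.83. RQCD1, an older name of CNOT9, and C2orf29, an older name of CNOT11, scored 2.01 and 1.99, each with 1 enriched window and no region. The list of other deadenylases, which is not limited to nucleases, had regions in 7 of 8 genes and a median gene-level score of 3.14. PAN3, which directs the nuclease PAN2 to poly(A), was highest at 6.11, with 309.9 in the IP and 3.6 in the input at its highest pair, followed by TOE1 at 3.62. PARN, the poly(A)-specific ribonuclease, was the 1 without a region, at 0.77.

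Proteins that recruit the complex to messages had regions in 14 of 17 measured genes, with a median gene-level score of 2.90. The highest were ZFP36L2, which binds AU-rich elements, at 5.27 (414.7 in the IP and 7.43 in the input) and CPEB4, which binds cytoplasmic polyadenylation elements, at 5.09. BTG3 was lowest at 0.95. Decapping and 5′ decay genes had regions in 5 of 19, with a median of 1.12. They ran from DDX6, the helicase that binds CNOT1, at 5.70 and EIF4ENIF1 at 3.6 down to LSM7 at -0.14. That score is relative to gene medians. At the highest pair of LSM7 the IP was 17.8 and the input 7.10, a fold of 2.51 (2.07 to 3.05). The exosome and Ski complex had regions in 6 of 15, with a median of 1.39. Scores there ran from EXOSC6 at 4.84 and DIS3L at 3.65 down to EXOSC8 at 0.79. Among poly(A) binding proteins and their partners 1 of 5 measured genes had regions, PABPN1 at 3.08, while PABPC4 scored 1.16 and PAIP1 0.82. The lists differ in transcript length, with a median of 38 windows in the exosome list, 84 in the other deadenylases and 92 in the recruiters. The part of length in these counts was not tested.

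**Figure D5:**
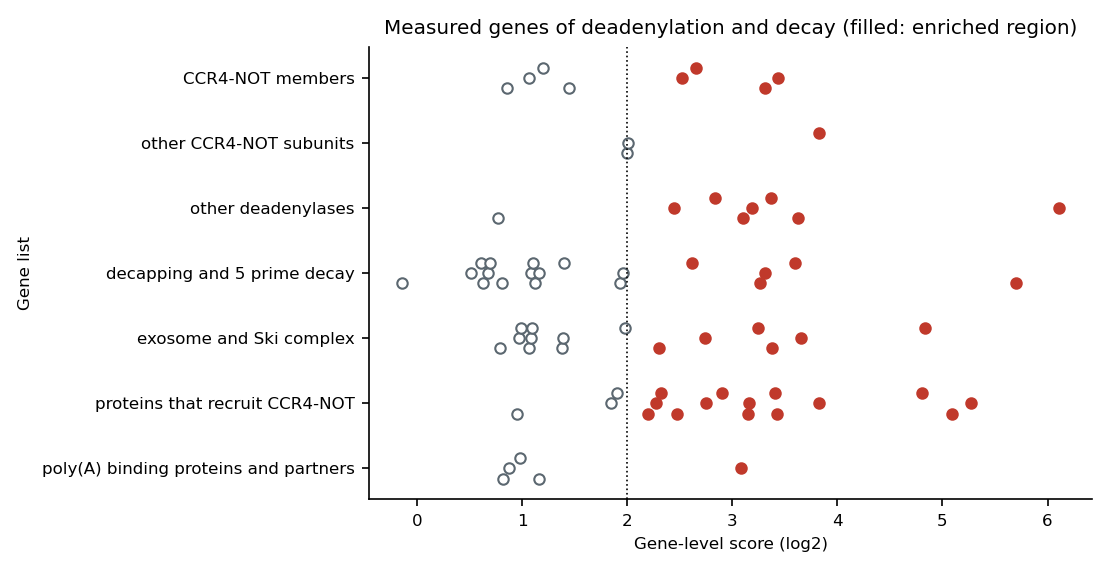
Gene-level score (horizontal axis, log2) of every measured gene of the members and of 6 lists of deadenylation and decay genes, 1 row for each list; filled points have an enriched region and the dotted line is a score of 2. Filled points make up 4 of 8 CCR4-NOT members, 7 of 8 genes in the list of other deadenylases, 14 of 17 recruiting proteins and 1 of 5 poly(A) binding proteins and partners.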

How the data were processed

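Coverage in windows is a signal that the authors deposited after scaling each library. TopHat 1.1.3 and the genome build hg19 are named, per the submitters' processing notes. For the scaling factor, the counting program and the annotation, nothing is stated in those notes or the labels. Per the labels' protocols the libraries kept the strand. All coverage values above 0 were whole multiples of a step within 0.01 step, from which read numbers were derived. The score is a log2 value deposited by the authors, and was recomputed from the coverage without a difference.

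The listing with most windows was kept for each gene. Regions, gene-level scores, exon classes, Poisson intervals for levels and conditional binomial (Clopper-Pearson) intervals for shares and folds came from scipy 1.17.1 with pandas 2.3.3, numpy 2.4.6 and Python 3.11.15, plotted with matplotlib 3.10.9. A pair of windows may cross an exon boundary. Region calling was also run on simulated data in which each window was drawn on its own, although real windows overlap. The outcome is not given here and lends no support to the regions.

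Members and lists were chosen with earlier results of these data known. All 9 members were named, and from each list the 2 highest and the 1 lowest measured genes by gene-level score. Each group had 1 library, so no test between groups was made. Alternatives changed the threshold, the number added, the centring, the listing, the input minimum, the run length and the summary. No sequence of the regions was used here.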

Additional observations from a re-analysis of the deposited data

How the results depend on the processing

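Of the 9 members, 8 had a region at a score threshold of 1 (all but CNOT3, and with the unmeasured CNOT6L), with 15 regions and 74 enriched windows. At a threshold of 3, 2 members (CNOT2 and CNOT6) had one, with 2 regions and 4 enriched windows. No share over all measured genes is given at the thresholds, added numbers and run lengths of this section. The counts of members and of list genes here thus have no background beside them. With runs of at least 4 windows 3 members and 3 regions were left, and CNOT8 was lost. With 0.1 added in the score there were 40 enriched windows, with 5 added 10, and in windows with an input of at least 5 there were 12, while 4 or 5 members had a region under these. Allowing 1 lower window inside a region, an alternative chosen after seeing the data, left the 4 members and joined the regions of CNOT4, giving 5 regions. The median gene-level score of the 9 members lay between 1.11 and 2.34 over 8 alternatives, against 1.54. The alternative with an input of at least 5 held 8 of these genes. The log2 ratio of IP to input was also taken as the median over windows, with 1 added. It then changed sign for CNOT2 (-0.081), CNOT3 (-0.044), CNOT6 (-0.27) and CNOT8 (-0.28), and fell to 0.02 for CNOT4. CNOT3 had no region, and the cause of these changes was not tested. Of the lists, genes with a region went from 5 to between 3 and 11 for decapping and 5′ decay over the thresholds and added numbers tried, from 6 to between 4 and 11 for the exosome and Ski complex, from 14 to between 7 and 16 for recruiting proteins, from 7 to between 4 and 7 for other deadenylases, from 1 to between 1 and 3 for other subunits and from 1 to between 0 and 1 for poly(A) binding proteins and partners. No paired analysis was possible because each group has 1 library. Coverage was low for CNOT6L and for the kept terminal exon of CNOT4, with an input of 0.542 and 0.209.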
